A study of Homo sapiens with 16 samples.

Results

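The collagen genes of CCD-1070Sk cells, an established line of normal human skin fibroblasts, were taken as every gene whose symbol reads COL, a number, A and a number. This gave 44 of the 28374 genes in the count table, of which 11 encode fibrillar collagens, 9 network-forming collagens, 10 FACITs (collagens that sit on the surface of fibrils) and 14 other types. The cells had been serum starved in all groups. Untreated cells (control, 3 libraries) were compared with cells given epidermal growth factor (EGF, 30 ng/ml, 3 libraries) or the phorbol ester TPA (100 nM, 2 libraries), an activator of protein kinase C, both for 1 h. The kinase inhibitor H89 (10 µM for 30 min, aimed at MSK1 and MSK2 and also acting on protein kinase A) was used alone (H89, 3 libraries, recorded at 0 h), before EGF (EGF+H89, 2 libraries) or before TPA (TPA+H89, 2 libraries). Control 4 equalled control 3 at 100% of the 19340 genes detected in the pair, which was counted once. It is 1 cell line, and the labels do not say whether libraries came from separate cultures, so p-values measure only how far these libraries differ, possibly for technical reasons.

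Collagens are triple helices of 3 chains, each chain the product of 1 gene, and chains of 1 type are made in matched amounts before they are trimmed outside the cell. In the dermis, fibroblasts lay down fibrils of types I and III, with type V inside them setting their diameter, while type VI forms beaded filaments around the cells, types IV and VII belong to the basement membrane zone, and FACITs such as types XII and XIV link fibrils to their surroundings. TGF-beta is the best known signal that raises transcription of the fibrillar genes.

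Collagen RNA was dominated by few chains. The 44 genes took between 2.49% and 6.80% of all counts of a library (median 3.73%), and COL1A1, COL1A2, COL3A1, COL6A1, COL6A2 and COL6A3 together took 74.2% to 85.6% of these. Fibrillar chains made up 51.9% to 80.7% of collagen counts, other types 14.5% to 40.6%, FACITs 2.52% to 10.8% and network-forming chains 1.98% to 3.21%. By mean level over the 15 libraries, 17 genes stood at 100 counts-per-million (CPM) or more, after TMM scaling, 6 at 10 to 100, 8 at 1 to 10 and 13 under 1. The first 23 of these, with a mean of at least 10 CPM, comprised 8 fibrillar, 5 network-forming, 3 FACIT and 7 other chains. None of the 44 passed the test in any treatment comparison when all 15 libraries were used.

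**Figure D1:**
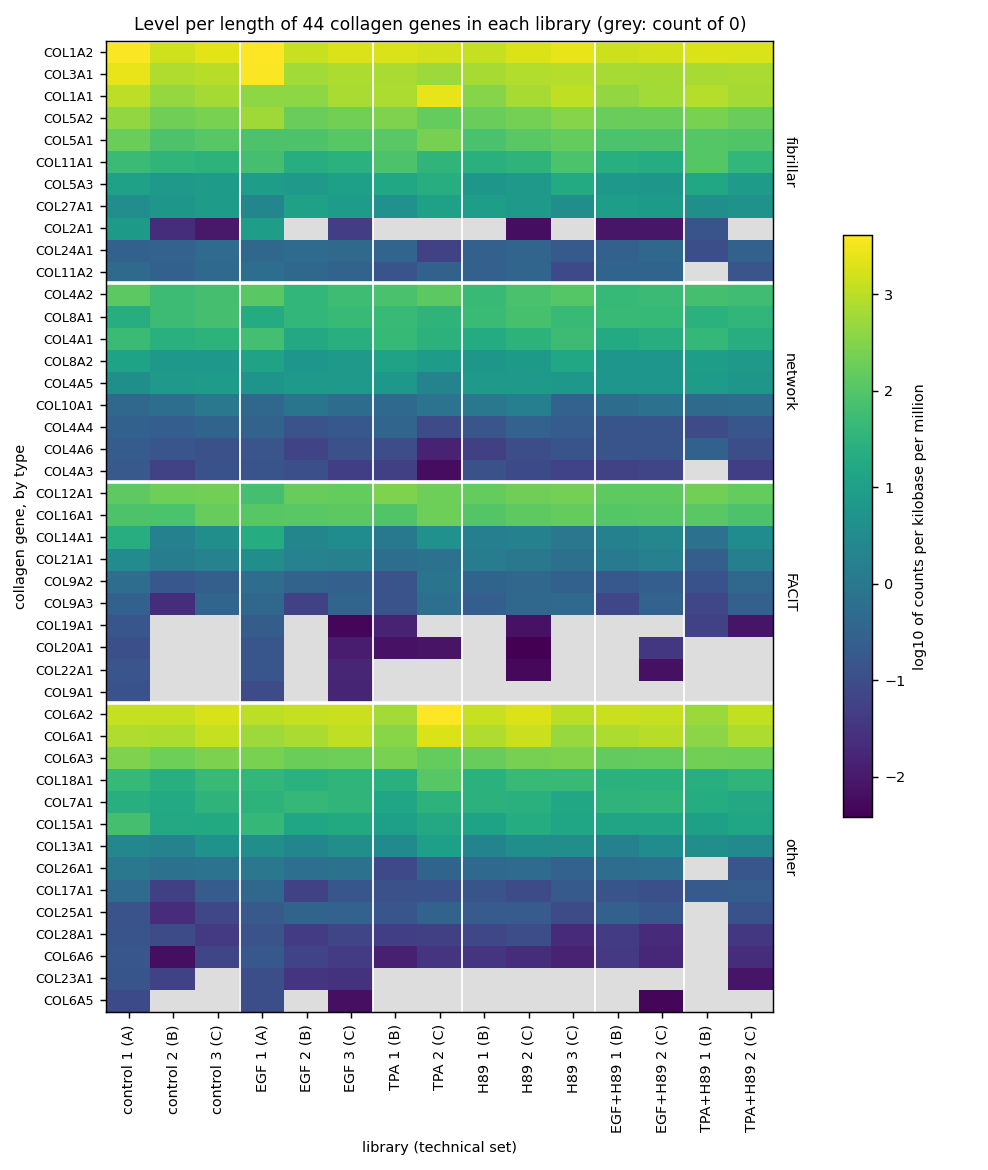
Level of each of the 44 collagen genes (rows, by type) in each of the 15 libraries (columns, with the technical set in parentheses), as log10 of TMM-scaled counts-per-million per kilobase of transcript; grey marks a count of 0. The bright rows at the top of the fibrillar and other blocks are COL1A2, COL3A1, COL1A1, COL6A2 and COL6A1, and the rows with the most grey, among them COL9A1, COL22A1 and COL6A5, are filled mainly in control 1 and EGF 1.

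The libraries held 7527026 (TPA+H89 1) to 130075914 (TPA 2) counts. Technical features of the counts divided them into 3 sets that cross the groups, which the labels do not tie to the 3 sequencing platforms they name. Set A is control 1 and EGF 1, which had more genes at a count of 1 than at 2. Set B is control 2, H89 1, EGF 2, EGF+H89 1, TPA 1 and TPA+H89 1, in which the ribosomal RNAs RNR1 and RNR2 took 11.7% to 30.4% of counts, and set C is the other 7. The TPA and TPA+H89 libraries and H89 3 are named c13 to c18 together with control 4, the copy of control 3, and the labels do not say what the numbers mean. TPA 1, TPA+H89 1 and H89 3, from 3 treatments and 2 technical sets, stood together in several collagens: they were the 3 highest libraries for COL11A1 and the 3 lowest for COL6A1 and COL6A2. H89 3 received no TPA by its label, and what these 3 libraries share was not tested. The labelled treatments were checked with EGR2, an early-response gene, which was at 4.44 to 10.0 CPM in control, 43.0 to 201 CPM in EGF, 347 to 350 CPM in TPA, 5.37 to 8.46 CPM in H89, 240 to 243 CPM in EGF+H89 and 265 to 365 CPM in TPA+H89. DUSP5, a phosphatase induced by ERK signalling, was at 41.1 ± 1.68 CPM in EGF+H89 (n = 2) against 92.1 ± 14.6 in EGF (n = 3) and 57.3 ± 25.6 in TPA+H89 (n = 2) against 197 ± 52.3 in TPA (n = 2), as means with SD. The DUSP5 libraries with H89 lay below those without it in both pairs, while EGR2 in both EGF+H89 libraries lay above all 3 EGF libraries. The 8 fibroblast markers summed to 5698 to 10190 CPM. The keratinocyte keratins KRT1, KRT5 and KRT14 were at most 0.290 CPM, but KRT10 of the same list was at 6.04 to 47.7. The summed endothelial, melanocyte and leukocyte markers were at most 3.04, 4.01 and 3.21 CPM. Smooth muscle and pericyte markers summed to 21.4 to 104 CPM, mostly CNN1 (15.9 to 100), and chondrocyte markers to 8.69 to 59.3. In bulk RNA, fewer cells that express a gene and less RNA per cell cannot be told apart.

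COL1A2, the α2 chain of type I collagen, had the highest median of the collagen RNAs per length, at 1969 CPM per kilobase of transcript, with a range of 1245 to 4115 over the libraries. COL6A2 followed at 1220, then COL6A1 at 742, COL3A1 at 695 and COL1A1 at 650 CPM per kilobase. COL6A2, COL6A1, COL3A1 and COL1A1 were not separated by their spread, as each varied 5.80-fold or more between its lowest and highest library. The COL6A2 range, 497 to 3977, also overlapped that of COL1A2. COL1A2 did not lead in every library, as COL1A1 per length was 1.56 times COL1A2 in TPA 2. COL5A2 (209), COL6A3 (196), COL12A1 (159), COL16A1 (114) and COL5A1 (107 CPM per kilobase) formed the next tier, again with overlapping ranges. Within these 10 genes, with coding length in place of transcript length, COL1A1 and COL3A1 exchanged places, as did COL16A1 and COL5A1.

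Values of a group are given here in replicate order. COL1A2 was at 20559, 8168 and 12636 CPM in untreated cells, at 22266, 6920 and 10653 after EGF, at 10678 and 8572 after TPA and at 6739, 10828 and 14300 with H89 alone. With both agents it was at 7591 and 8885 CPM (EGF+H89) and at 10711 and 10316 (TPA+H89). Its highest values were both in set A, and every treatment group overlapped the control range. COL3A1, the chain of the type III homotrimer, was at 14056, 4306 and 5057 CPM in control and 20652, 3326 and 4205 in EGF, and in the 9 libraries of the other groups it stayed between 3007 and 4819. Set A was again the high one, 4.39 times the mean of the other 13 libraries.

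COL1A1, the α1 chain of type I collagen, was at 6933, 3017 and 4328 CPM in control (mean 4759 ± 1993, SD, n = 3) and 2577, 2639 and 4682 in EGF (3299 ± 1198, n = 3). It reached 5122 and 16656 CPM in TPA (10889 ± 8155, n = 2). TPA 2 stood far above every other library, while TPA 1 lay inside the control range. In H89 the level was 2278, 4515 and 7229 CPM, in EGF+H89 it was 2986 and 4066, and in TPA+H89 it was 5998 and 4371.

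The type I trimer holds more α1 than α2 chains, but the RNA ratio ran the other way. Per length, COL1A1 was at 0.335 of COL1A2 in the median library (0.389 with coding length), and 13 of the 15 libraries lay between 0.271 and 0.450. The other 2 were EGF 1 at 0.0931 and TPA 2 at 1.56. The type V pair behaved in the same manner, with COL5A1 at 0.460 of COL5A2 in the median library, at 0.420 to 0.545 in 13 libraries, at 0.151 in EGF 1 and at 1.60 in TPA 2. These ratios are within 1 library and do not depend on its scaling. The paired transcripts differ in GC content, at 61.1% for COL1A1 and 54.8% for COL1A2, and 60.3% for COL5A1 and 47.9% for COL5A2. The part of GC content in the ratios was not tested. Neither odd value was shared by the other libraries of its treatment.

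**Figure D2:**
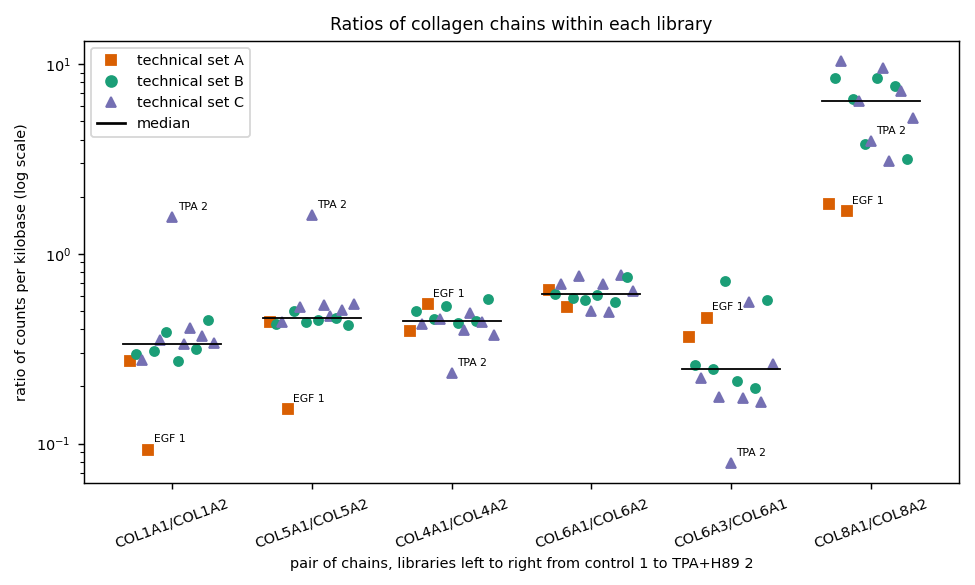
Ratio of 2 collagen chains per kilobase of transcript in each library (log axis, points left to right from control 1 to TPA+H89 2, shape and colour by technical set, black line the median). EGF 1 and TPA 2 stand apart for COL1A1/COL1A2 and COL5A1/COL5A2, TPA 2 is lowest for COL4A1/COL4A2 and COL6A3/COL6A1, and COL6A1/COL6A2 stays between 0.493 and 0.772.

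The fibril-diameter chains of types V and XI were next. COL5A3, a minor type V chain, was at 66.4, 40.8 and 47.8 CPM in control and 57.5, 42.3 and 61.3 in EGF. It was at 95.5 and 135 CPM in TPA, both above every control. It was also at 115 CPM in H89 3, which received no TPA, while H89 1 and H89 2 were at 36.5 and 39.9, and at 94.2 and 48.0 in TPA+H89. COL11A1, a type XI chain best known from cartilage, was at 356, 245 and 223 CPM in control and at 621 and 250 in TPA. Its other high values were 769 CPM in TPA+H89 1, 581 in H89 3 and 496 in EGF 1. It was at 187 and 237 CPM in H89 1 and H89 2 and at 278 in TPA+H89 2. The high libraries of these genes thus include some without TPA, and 1 of the 2 TPA libraries was in the control range for COL11A1.

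Promoters are shown for COL11A1 and COL5A3, both high in TPA 1, H89 3 and TPA+H89 1 but not alike in TPA 2 or EGF 1. The sequences are from RefSeq on build GRCh38.p14, which held 32 of the 44 symbols with 44 start windows. Each is 250 bases that end at the start of transcription, 5′ to 3′ on the strand of the gene, with capitals for letters of the CCAAT box (CCAAT), the GC box (GGGCGG) or the TATA box (TATAAA) on either strand. COL11A1 is on the minus strand at chr1:103108523-103108772 and COL5A3 on the minus strand at chr19:10010505-10010754.
COL11A1: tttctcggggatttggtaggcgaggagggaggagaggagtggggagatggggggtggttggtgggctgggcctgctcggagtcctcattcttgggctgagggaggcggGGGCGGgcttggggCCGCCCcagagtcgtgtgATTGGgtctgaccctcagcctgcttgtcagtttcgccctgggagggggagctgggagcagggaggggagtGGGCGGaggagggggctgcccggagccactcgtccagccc
COL5A3: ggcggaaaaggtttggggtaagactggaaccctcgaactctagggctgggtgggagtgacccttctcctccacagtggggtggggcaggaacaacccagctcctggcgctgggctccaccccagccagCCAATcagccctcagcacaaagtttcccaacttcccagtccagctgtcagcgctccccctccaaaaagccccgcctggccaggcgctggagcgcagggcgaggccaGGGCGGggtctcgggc
Both windows held a CCAAT box, on opposite strands, and a GC box, and neither held a TATA box. Their GC contents were 68.8% and 66.0%. Of the 44 collagen windows, 12 had a CCAAT box, 24 a GC box and 8 a TATA box, and these motifs were in 32.0%, 42.6% and 10.7% of all 35116 promoters. The AP-1 site TGACTCA, bound by FOS and JUN proteins, was in 0 collagen windows and 4.20% of all promoters, and the cyclic AMP response element TGACGTCA was in 0 and 1.65%. These counts cover only the letters of these windows.

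Other fibrillar chains spanned a wide range of levels. COL5A2 was between 1065 (TPA 2) and 4024 CPM (EGF 1), and COL5A1 between 661 (H89 1) and 2042 (TPA 2). COL27A1, a fibrillar chain of unusually short helix, was between 17.3 CPM (EGF 1) and 84.6 (TPA 2). COL24A1 and COL11A2 had means of 2.13 and 1.91 CPM.

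Among network-forming chains, the type IV pair COL4A1 and COL4A2, the main chains of basement membranes, had medians of 28.7 and 67.7 CPM per kilobase, with COL8A1 between them at 43.1. With coding length in place of transcript length COL8A1 was above both, at 110 against 38.0 for COL4A1 and 85.6 for COL4A2. COL4A2 was at 821, 333 and 450 CPM in control, 759, 244 and 352 in EGF, and 498 and 796 in TPA. COL4A1 was at 328, 170 and 196 CPM in control, 419, 113 and 164 in EGF, and 271 and 190 in TPA. Their ratio per length was steadier than their levels, at a median of 0.445 and between 0.376 and 0.580 in 14 libraries, with TPA 2 lowest at 0.234.

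The 2 genes lie head to head and are known to share a promoter. The whole interval between their RefSeq starts is 126 bases at chr13:110307158-110307283 (GRCh38.p14), given on the plus strand, which reads toward COL4A2, with its CCAAT and GC boxes in capitals.
COL4A1-COL4A2 interval: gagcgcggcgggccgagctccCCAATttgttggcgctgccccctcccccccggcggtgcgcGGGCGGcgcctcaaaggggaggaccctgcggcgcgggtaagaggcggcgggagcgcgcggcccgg
It has a GC content of 80.2% and no TATA box. The CCAAT box lies 105 bases and the GC box 65 bases before the COL4A2 start.

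Type VIII, which forms hexagonal lattices, was led by COL8A1 at 111 (EGF 1) to 411 CPM (H89 2), and COL8A2 was at 26.5 (EGF+H89 1) to 70.2 (H89 3). COL8A1 per length was 6.40 times COL8A2 in the median library, 1.82 and 1.68 times in control 1 and EGF 1, and 10.4 times in control 3. COL4A5, a chain of the epithelial and smooth muscle type IV networks, was at 24.5 to 51.6 CPM in every library but TPA 2, where it was at 12.2. Its neighbour COL4A6 had a mean of 0.830 CPM, and COL4A3, COL4A4 and COL10A1 had means of 0.634, 2.07 and 2.32 CPM.

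Of the FACITs, COL12A1 and COL16A1 were strongly present. COL12A1 was at 1542, 2198 and 2454 CPM in control, 809, 1869 and 1835 in EGF and 3207 and 2211 in TPA. COL16A1 was at 494, 468 and 941 CPM in control and between 492 and 1127 in all others. COL14A1, which decorates fibrils of mature dermis, was at 142 and 131 CPM in control 1 and EGF 1 and between 4.56 and 27.3 in the other 13 libraries. COL21A1 was at 13.7, 5.998 and 7.74 CPM in control and at 2.54 and 3.01 in TPA, below every control, but also at 2.85 in H89 3 and 1.09 in TPA+H89 1.

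Type VI dominated the other types. COL6A2 was at 4222, 4163 and 5979 CPM in control, 3518, 4255 and 4777 in EGF, 2065 and 13765 in TPA, and 4370, 6853 and 3342 with H89 alone. It was at 4610 and 4135 CPM in EGF+H89 and at 1721 and 4016 in TPA+H89. COL6A1 was at 3339, 3142 and 5067 CPM in control, 2260, 3033 and 4496 in EGF, 1445 and 8387 in TPA, and 3257, 5850 and 2016 with H89 alone. The 2 TPA libraries thus lay on opposite sides of the control range for both chains. COL6A1 and COL6A2, which adjoin on 1 chromosome, kept a ratio per length of 0.493 to 0.772 in all 15 libraries, the narrowest of the pairs compared.

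COL6A3, the longest chain of the trimer, did not follow them. It was between 1565 and 3075 CPM in all libraries, a 1.96-fold range and the smallest of the 23 genes, so COL6A3 over COL6A1 per length ran from 0.0791 in TPA 2 to 0.722 in TPA 1 around a median of 0.247. The next highest were TPA+H89 1 at 0.570 and H89 3 at 0.555. The 250 bases before the COL6A2 start, at chr21:46097862-46098111 on the plus strand (GRCh38.p14), are shown because this gene had the widest range, 7.998-fold, of the 17 genes at 100 CPM or more.
COL6A2: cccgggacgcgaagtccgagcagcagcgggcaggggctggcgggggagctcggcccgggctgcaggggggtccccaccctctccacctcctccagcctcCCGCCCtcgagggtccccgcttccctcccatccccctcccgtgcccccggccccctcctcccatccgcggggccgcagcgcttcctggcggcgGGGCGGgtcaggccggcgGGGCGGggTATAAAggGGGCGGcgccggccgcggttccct
The window has a GC content of 79.6%, a TATA box 32 bases before the start and 4 GC boxes, 1 of them on the reverse strand.

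COL7A1, the anchoring fibril chain that ties epidermis to dermis, was at 211, 172 and 296 CPM in control and 280, 374 and 306 in EGF. The basement membrane multiplexins COL18A1, the source of endostatin, and COL15A1 were at 137 (TPA+H89 1) to 674 CPM (TPA 2) and at 54.0 (TPA 1) to 378 CPM (control 1). COL13A1, a transmembrane collagen at cell adhesions, was at 7.69, 6.12 and 14.3 CPM in control and 9.45 and 30.9 in TPA, only TPA 2 lying above the controls.

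**Figure D3:**
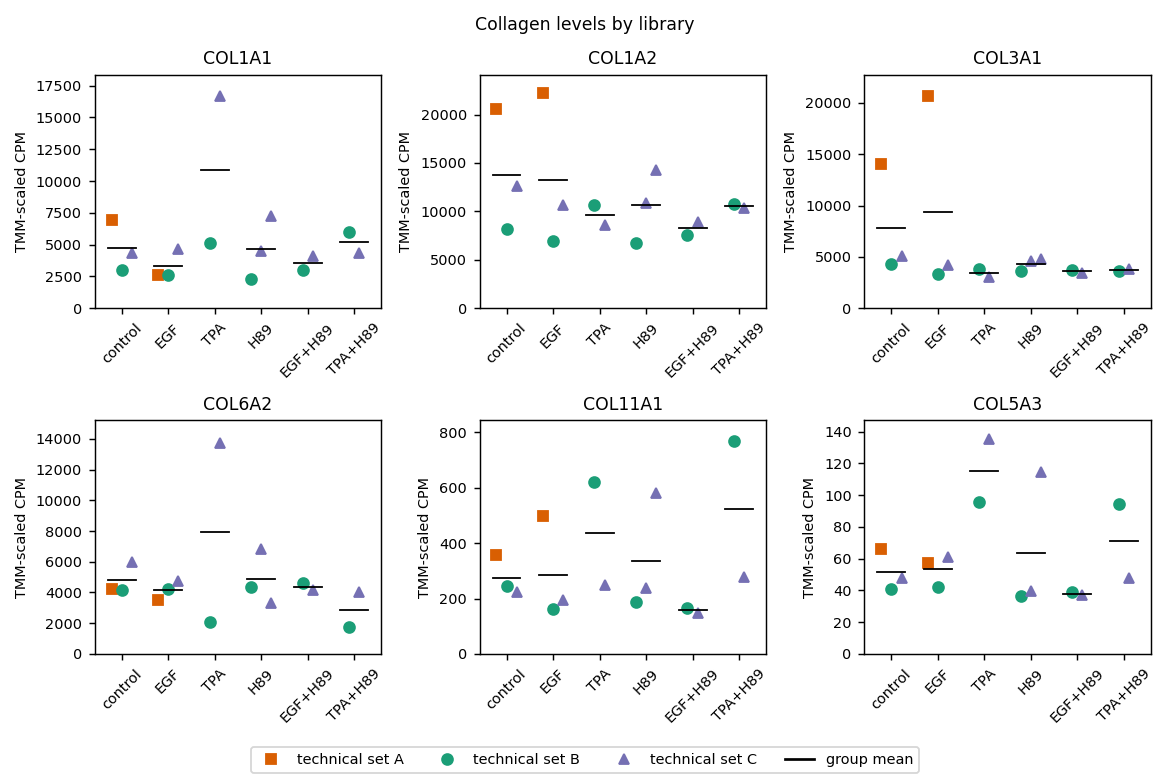
TMM-scaled counts-per-million of 6 abundant or variable collagens in each library by treatment group (shape and colour by technical set, bar the group mean, linear axes from 0). COL1A2 and COL3A1 are highest in set A, COL1A1 and COL6A2 in TPA 2, and COL11A1 and COL5A3 are high in TPA 1, H89 3 and TPA+H89 1, with COL5A3 highest in TPA 2.

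In 7 members, picked out after their values were seen, nearly all counts came from set A. COL2A1, the cartilage fibrillar chain, had 1691 and 1964 counts in control 1 and EGF 1, and at most 16 in any of the other 13 libraries (29 counts of 590177799 in all). COL6A5, COL19A1, COL22A1, COL9A1, COL20A1 and COL23A1 showed the same split at lower depth, with 15 to 63 counts in each of the set A libraries and at most 7 in any other. Of the 21 genes with a mean under 10 CPM, 14 were higher in both set A libraries than in all others, against 5 of the 23 more abundant ones (COL1A2, COL3A1, COL5A2, COL14A1 and COL15A1), while COL8A1 and COL27A1 were lower. The share of all genes with such a difference was not counted, so these numbers are not read as particular to collagens. Some other collagens known from cartilage overlapped between set A and the rest: COL10A1 was at 1.35 and 1.45 CPM in set A and up to 5.38 elsewhere, COL9A2 at 1.54 and 1.56 and up to 2.31, and COL9A3 at 0.717 and 1.00 and up to 1.53. COL11A2, also a cartilage chain, was higher in set A by a small margin, at 2.98 and 3.64 CPM against up to 2.94 elsewhere. The cartilage proteoglycan ACAN stood at 24.6 and 40.3 CPM in set A and at most 14.05 elsewhere, but SOX9, the cartilage transcription factor, was at 3.19 and 9.10 in set A and up to 39.5 elsewhere. Set A holds 1 control and 1 EGF library, so these genes entered the tests mainly through those 2 samples. The part of the technical set in their levels was not tested further.

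EGF for 1 h left the collagens without a detected change. By the quasi-likelihood test of edgeR, with p-values adjusted over 18575 genes by the method of Benjamini and Hochberg, 0 of 44 collagens were called, where 0.0269% of all genes were, and 1 (COL25A1) had an unadjusted p under 0.05, against 1.63% of all genes. DESeq2 also called 0 collagens and 0.413% of the genes to which it gave an adjusted p, and edgeR with a term for the technical set called 0 and 0.221%. Among the 23 genes of at least 10 CPM, 10 fold changes were positive and 13 negative, with a median log2 change of -0.05, beside 0.02 for all genes. By type the medians were 0.05 for fibrillar, -0.02 for network-forming, -0.08 for FACIT and -0.21 for other chains.

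The intervals show what could have been missed. The 95% interval of the log2 change with EGF was -1.65 to 0.59 for COL1A1, -1.06 to 0.95 for COL1A2 and -1.07 to 1.61 for COL3A1. It lay within a 2-fold change either way for 5 of the 23 genes (COL16A1, COL8A2, COL6A3, COL5A3 and COL4A5), and for 16 of 23 once a term for the technical set was fitted. COL7A1 had the highest value of the 23, 0.50 ± 0.33 (SE, adjusted p = 0.9999), and differed from the control of its own set by 0.41, 1.12 and 0.05. COL12A1 differed by -0.93, -0.23 and -0.42, below the control in 3 of 3 sets, with a fitted value of -0.46 ± 0.35 (adjusted p = 0.9999). COL4A2, COL5A1, COL6A1, COL6A3 and COL8A1 were likewise below the control in every set, while COL7A1 was above it in each. The share of all genes with 1 sign in every set was not counted. COL25A1, a transmembrane chain, was at 0.369, 0.0600 and 0.199 CPM in control and 0.513, 0.934 and 0.821 in EGF. Its value of 1.76 ± 0.75 (adjusted p = 0.9999) rests on 1 to 17 counts per control library, and it was the 1 collagen whose EGF libraries all lay above the controls, where 2.97% of all genes did so. For 0 collagens did they all lie below, where 1.99% of all genes did.

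With TPA the collagens again gave no call. By the same edgeR test 0 of 44 collagens were called, with 0.415% of all genes called, and 7 had an unadjusted p under 0.05 (13.2% of all genes did). DESeq2 called 0 collagens and 2.93% of genes, and with the technical-set term edgeR called 0 of 44 and 1.25%. Of the 23 more abundant genes 13 were higher and 10 lower, with a median of 0.28 (0.11 with the set term) beside -0.02 for all genes. TPA has no library in set A, and members that passed the filter through that set were bound to be lower, so nothing is read from the signs over all 44.

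COL5A3 was the 1 more abundant chain whose TPA libraries both lay above all controls, and edgeR put its log2 fold change at 1.16 ± 0.46 (adjusted p = 0.325), or 1.30 ± 0.43 with the set term (adjusted p = 0.137). It was above the control of its set by 1.23 in TPA 1 and by 1.501 in TPA 2, and H89 3 was above control 3 by 1.26. For COL1A1 the value was 1.19 ± 0.57 (adjusted p = 0.387), with an interval of -0.04 to 2.42, and within sets TPA 1 and TPA 2 differed from control by 0.76 and 1.94. The values were 1.10 ± 0.51 for COL13A1 (adjusted p = 0.380) and 0.90 ± 0.49 for COL18A1 (adjusted p = 0.424). For COL6A1 and COL6A2 the 2 TPA libraries disagreed in sign against their set's control, at -1.12 and 0.73 and at -1.01 and 1.20.

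On the lower side, COL26A1 was at 2.93, 2.16 and 2.32 CPM in control and 0.248 and 0.992 in TPA, and its log2 change was -1.95 ± 0.67 (adjusted p = 0.280). It was at 1.33, 1.47 and 0.904 CPM in H89, also below every control, and at 0 and 0.462 in TPA+H89. The count of 0, in TPA+H89 1, allows up to 0.399 CPM before TMM scaling. The limit is higher after scaling, where 2 counts (COL19A1) in that library were 0.364 CPM and 4 counts (COL2A1) were 0.729. The 0 is therefore not set below the 0.462 of TPA+H89 2. COL21A1 had a value of -1.72 ± 0.64 (adjusted p = 0.302), and differences of -1.24 and -1.36 within sets. COL15A1 had -1.37 ± 0.61 (adjusted p = 0.372), but with the set term this became -0.54 ± 0.29 (adjusted p = 0.344), and COL3A1 had -1.19 ± 0.72 (adjusted p = 0.447), with -0.16 and -0.75 within sets. TPA and control libraries did not overlap for 8 collagens that were lower in TPA, where 10.1% of all genes did so, and for 2 that were higher (COL25A1 and COL5A3), where 9.6% did. Among the 8 is COL2A1, read mainly in set A and at 0 in both TPA libraries.

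**Figure D4:**
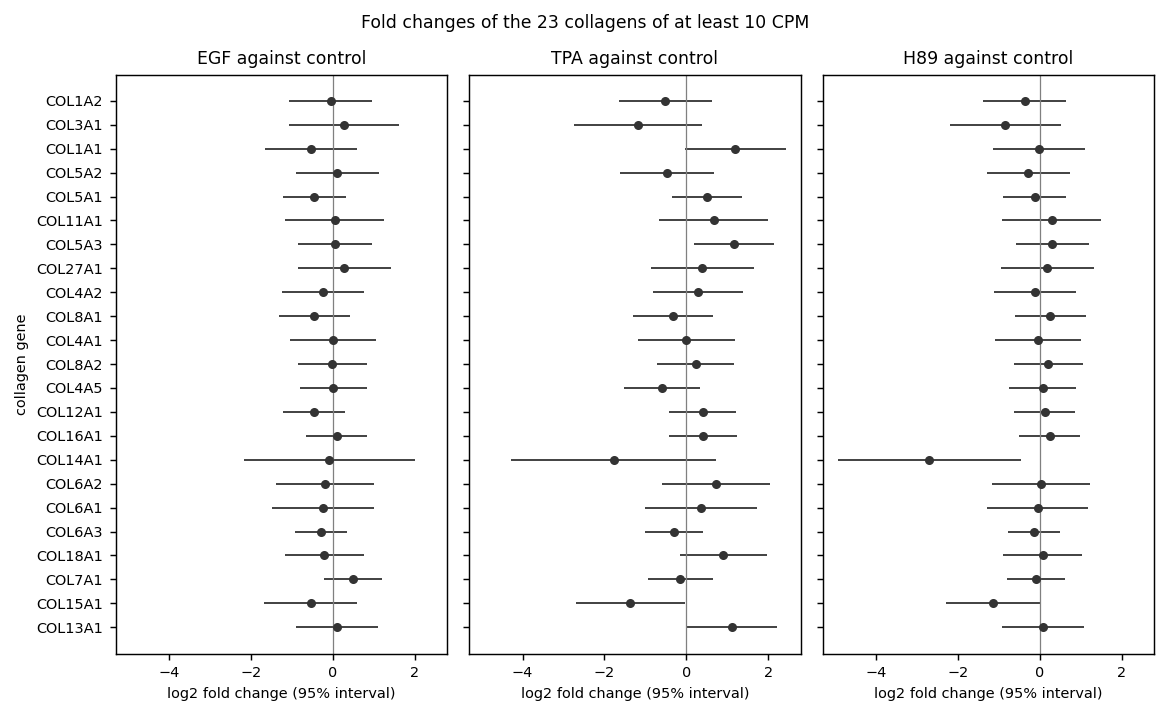
Log2 fold change against control with its 95% interval (edgeR, all 15 libraries) for the 23 collagens with a mean of at least 10 CPM, for EGF, TPA and H89. Intervals are about 1 log2 unit to each side, most cross 0, and none of the 23 genes was called after adjustment.

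The difference of TPA 2 from its control followed the GC content of the transcripts, which that of TPA 1 did not. Of the 12 more abundant collagens at or above the median GC content of 59.0%, 11 were higher in TPA 2 than in control 3 of the same set, with a median log2 difference of 0.97, and COL7A1 was lower. Of the 11 below that GC content 9 were lower, with a median of -0.56. The rank correlation between GC content and this difference was 0.69 across the 23 genes and 0.46 across 9045 genes, which share 2 libraries and are not independent. For TPA 1 against control 2 these were -0.09 and -0.17, and the 2 GC classes had medians of 0.35 and 0.36. Other libraries also gave such correlations against the control of their set across the collagens, 0.51 for EGF 2 and 0.54 for H89 1, with -0.00 and 0.18 across the 9045 genes. EGF 1, with its low COL1A1/COL1A2 and COL5A1/COL5A2 ratios, gave -0.19 across the collagens and -0.37 across all genes. The higher values of COL1A1, COL5A1, COL18A1, COL6A1 and COL6A2 in TPA 2 are therefore among GC-rich transcripts of 1 library. The part of GC content in them was not tested.

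**Figure D5:**
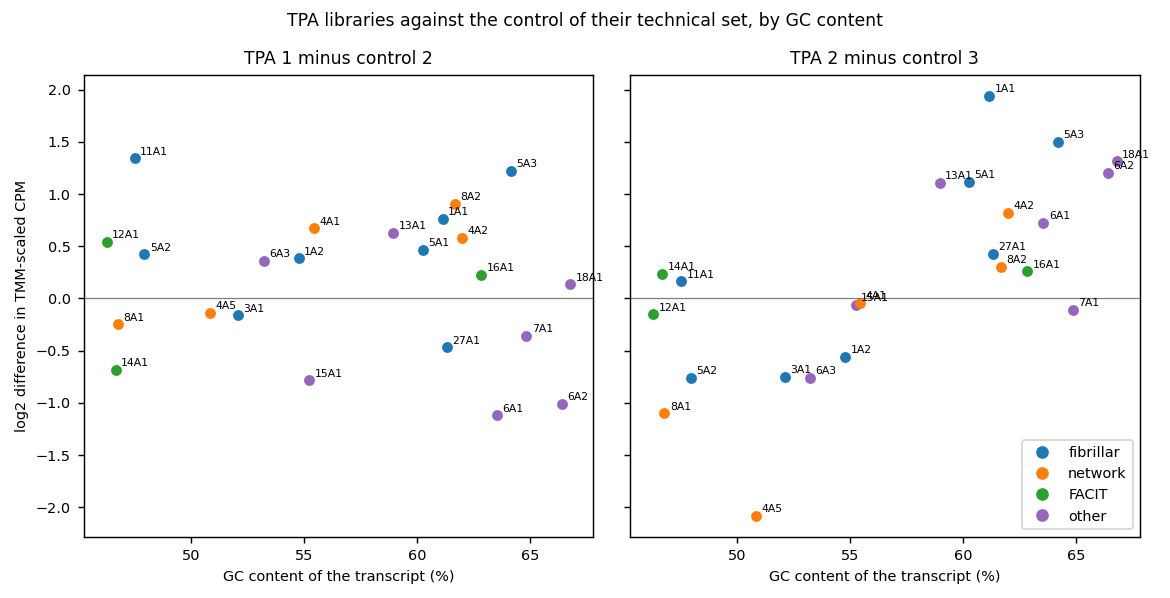
Log2 difference of each TPA library from the control of its technical set (vertical axis) against GC content of the transcript in percent (horizontal axis) for the 23 collagens of at least 10 CPM, coloured by type and labelled without the prefix COL. The points of TPA 2 climb with GC content, from COL4A5 and COL8A1 below 0 to COL1A1, COL5A3, COL18A1 and COL6A2 above 1, and those of TPA 1 do not.

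Calls appeared only when 1 TPA library was left out. With TPA 2 alone as the TPA group, edgeR called 4 of 44 against control (COL18A1 higher, COL24A1, COL4A5 and COL4A6 lower) with 5.92% of all genes called. The log2 fold changes were 1.58 for COL18A1, -2.71 for COL24A1, -1.75 for COL4A5 and -3.44 for COL4A6. In the same fit 4 were called for TPA against EGF (COL1A1 and COL18A1 higher, COL24A1 and COL4A5 lower, 5.81% of all genes) and 2 for TPA+H89 against TPA (COL4A5 higher, COL18A1 lower, 3.59%). With TPA 1 alone it called 0. This fit assumes that the lone library varies like those of the other groups.

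H89 without a mitogen also gave 0 of 44 calls by edgeR, with 0% of all genes called, and 5 collagens at an unadjusted p under 0.05, against 3.27% of all genes. DESeq2 called 0 collagens and 0.0165% of genes, and the set term gave 0 and 0%. With the set term 1 collagen had an unadjusted p under 0.05, against 1.87% of all genes. The 23 more abundant genes had a median of -0.03, with 11 higher and 12 lower. COL14A1 had the lowest log2 fold change of the 23, at 10.1, 10.8 and 6.13 CPM in H89 against 142, 10.9 and 23.2 in control, a value of -2.70 ± 1.03 (adjusted p = 0.9999) that became -0.93 ± 0.41 with the set term (adjusted p = 1). H89 3 differed from the other H89 libraries in COL11A1 (1.38 above control 3, against 0.09 for H89 2), COL5A3 and COL6A1 (-1.33 against 0.21). H89 and control libraries did not overlap for 4 collagens lower in H89 (COL14A1, COL21A1, COL26A1 and COL2A1), where 4.25% of all genes did so, and for 0 higher, where 2.85% did. H89 has no library in set A either, and members that passed the filter through that set, such as COL2A1, were bound to be lower. Nothing is therefore read from these counts of members.

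H89 before a mitogen gave no collagen call. EGF+H89 against EGF had 0 of 44 called by edgeR and 0% of all genes, with 0 collagens at an unadjusted p under 0.05 (1.67% of all genes) and 0 by DESeq2 or with the set term. DESeq2 called 0.00549% of genes and the set term 0%. Among the 23 more abundant genes 6 fold changes were positive and 17 negative, with a median of -0.36, or -0.17 with the set term. EGF holds a library of set A and EGF+H89 holds none, and members that passed the filter through set A were bound to be lower, so nothing is read from the signs over all 44. The libraries did not overlap for 11 collagens that were lower in EGF+H89, among them COL23A1, read mainly in set A, where 10.1% of all genes did so, and for 0 higher (7.6%). TPA+H89 against TPA had 0 of 44 called and 0% of all genes, also with the set term, and DESeq2 called 0 and 0.0494%. Here 6 collagens were lower and 2 higher without overlap, where 11.1% and 10.6% of all genes were. COL18A1 was the 1 collagen at an unadjusted p under 0.05, where 6.999% of all genes were, at 137 and 197 CPM against 154 and 674, a log2 fold change of -1.31 ± 0.55 (adjusted p = 0.713). COL1A1 had -1.07 ± 0.64 (adjusted p = 0.771), where TPA 2 was high and both TPA+H89 libraries were near TPA 1.

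The remaining contrasts gave 0 of 44 called by edgeR as well. The background was 0.0269% for EGF+H89 against H89, 0.0969% for TPA+H89 against H89, and 0% for TPA against EGF, for TPA+H89 against EGF+H89 and for both interactions, which ask whether H89 altered the response to EGF or to TPA. Collagens at an unadjusted p under 0.05 numbered 0, 1, 10, 2, 0 and 2 in that order, where 1.53%, 3.89%, 13.4%, 2.22%, 0.258% and 4.78% of all genes did so. DESeq2 called 0 collagens in each and 0.328%, 0.547%, 1.75%, 0%, 0% and 0% of genes, and the set term 0 and 0.269%, 0.431%, 0.334%, 0%, 0% and 0%. TPA against EGF had COL1A1 at 1.72, the largest positive value of the 23, where EGF 1 was low and TPA 2 high. EGF holds a library of set A and TPA holds none, and members that passed the filter through set A were bound to be lower in TPA. Nothing is therefore read from the 10 collagens at an unadjusted p under 0.05 in that contrast. With the set term they numbered 11, where 18.4% of all genes passed. The interaction with TPA holds a set A library only in its control group.

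The proteins that make, trim and bind collagen were examined by 4 lists. Of 31 procollagen processing genes tested, which hydroxylate, fold, export, cleave and cross-link the chains, 0 passed edgeR in any comparison, and their median with TPA was 0.17. The 9 tested fibril-associated proteins, small proteoglycans and relatives that bind fibrils, had a median of -1.11 with TPA and 0 called. FMOD (fibromodulin) was at 33.2, 47.2 and 49.4 CPM in control and at 11.7 and 3.98 in TPA, with a log2 change of -2.47 ± 0.68 (adjusted p = 0.204). With the set term this was -2.91 ± 0.58 (adjusted p = 0.0185), the 1 call in these lists under that fit, which called 1.25% of all genes with TPA. A single call is therefore not read as a result about the lists. FMOD was also at 13.4 CPM in H89 3, with H89 1 and H89 2 at 45.9 and 60.0. DCN (decorin), the most abundant dermal proteoglycan, was at 2894, 4928 and 3728 CPM in control, 1681 and 1289 in TPA and 1899 in H89 3, a log2 fold change of -1.37 ± 0.46 with TPA (adjusted p = 0.272). The 13 basement membrane partners had a median of 0.17 with TPA and the 8 tested collagen receptors one of -0.15, with 0 called in either list. LAMA4 (a laminin chain) had a log2 change of -1.02 ± 0.33 with TPA (adjusted p = 0.258). It was at 983, 622.5 and 801 CPM in control and 436 and 354 in TPA, but also at 412 in H89 3. HSPG2 (perlecan) had 1.33 ± 0.46 (adjusted p = 0.281). It was at 305, 188 and 282 CPM in control, 312 in TPA 1, 986 in TPA 2 and 378 in H89 3.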

How the data were processed

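The values are the deposited gene counts, raw and not normalized, for 28374 symbols, per the file headers. Per the labels' protocols, ribosomal RNA was removed with a kit and the libraries keep strand. HOMER and the builds hg19 and GRCh37 are named in the submitters' processing notes. Whether counting used strand is not given in the sources used here, and counts of the 5 antisense genes named for a collagen were at most 0.663% of that gene's. Members and lists were chosen with earlier results of these data known. The genes named are all collagens by symbol and the 4 related lists, with values for those the results turn on.

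Tests used edgeR 4.0.16 in R 4.3.3, with a term per group over 15 libraries, TMM scaling and filterByExpr with a smallest count of 10, which kept 18575 genes, all 44 collagens among them. With at least 10 counts in 50% of the libraries 36 collagens remain. P-values were adjusted by Benjamini-Hochberg at 0.05 over all tested genes. Lengths and GC content are of GENCODE 29 principal transcripts. Alternatives included DESeq2 1.42.0 and are given at the end. The scripts were tested on simulated data. Intervals are at 95%, and limits from a count of 0 use 3 counts over the library total before TMM scaling and cover counting error only.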

Additional observations from a re-analysis of the deposited data

How the results depend on the processing

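The number of collagens called was 0 in all 11 comparisons under all alternatives but 1, among them DESeq2, its size factors in edgeR, other filters on low counts, only the compared groups, both control copies, the technical-set term and leaving out control 1, EGF 1 and TPA 2 together. Leaving out each library in turn gave 0 to 4 called for TPA against control, 0 to 4 for TPA against EGF and 0 to 2 for TPA+H89 against TPA, the higher numbers all without TPA 1. Of the 40 fold changes against control followed through the alternatives, 24 changed sign in at least 1 of them (5 of 12 for EGF, 10 of 18 for TPA and 9 of 10 for H89) and 16 kept it. The set term with a filter of 10 counts in 50% of the libraries, and sets B and C alone with that term, were chosen after seeing the data. The labels give no replicate numbers, so libraries were blocked only by technical set. With 2 or 3 libraries a group, the 95% interval lay within a 2-fold change either way for 5 of the 23 more abundant collagens with EGF and 1 with TPA.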
